A study of Mus musculus with 2 samples.

Results

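Wnt pathway genes were examined in a comparison of 2 samples of mouse cells hybridised to a 1-colour whole genome oligonucleotide microarray. The genes were chosen by name: those whose platform symbol belongs to the families of Wnt ligands, Frizzled, LRP5/6 and LGR receptors, R-spondins, secreted antagonists (DKK, SFRP, FRZB, WIF1), Dishevelled, Axin, APC, casein kinase 1, GSK3, beta-catenin, TCF/LEF, Groucho/TLE, Naked, Kremen, Vangl and Prickle, with Wls and Porcn. This gave 59 of the 11484 genes measured, read by 65 probes, out of 91 mouse gene symbols of these families in RefSeq. The other 32, among them Ctnnb1, Gsk3a, Gsk3b, Lrp6, Lef1, Tcf7, Tcf7l2 and Dkk1, were not analysed here. The small-molecule-generated stem cells, called generated cells here, were at passage 5 and kept in embryonic stem (ES) cell medium, and the parental cells were at passage 1 and kept in medium with fetal bovine serum. Both were labelled as embryonic and of strain C57/ICR, and neither the small molecule nor the type of the parental cells is named in the labels. Passage and medium thus differed together with the treatment and cannot be told apart from it. There was 1 column of values per sample, so no test between the samples was possible, and every fold is a description of these 2 samples.

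Wnt ligands are secreted lipid-modified proteins. In the canonical branch they bind Frizzled and LRP5/6 at the cell surface, Dishevelled then inhibits the destruction complex of Axin, APC, GSK3 and casein kinase 1, and beta-catenin enters the nucleus, where it turns TCF/LEF factors from repressors, bound by Groucho/TLE proteins, into activators. In mouse ES cells this pathway sustains self-renewal, in large part by relieving repression by Tcf7l1, whereas in mesenchymal cells it is shaped by many secreted antagonists and by beta-catenin-independent signals that run through Wnt5a, ROR receptors and the planar cell polarity proteins.

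Values are normalised probe intensities, averaged on the log2 scale where a gene had more than 1 probe. Medians over all probes were 305 in the generated cells and 304 in the parental cells. The 25th percentile of each sample, 93.4 in the generated cells and 93.8 in the parental cells, was taken as a floor. Genes that passed the floor in neither sample are called dim and have no fold. For genes that passed it in 1 sample only, the brighter value was divided by the floor of the other column, and such folds are written with "at least". The error between probes was large. Log2 differences of probe pairs reading the same gene (612 genes) gave an SD of 1.05 for 1 probe, equal to 2.07-fold, and this covers neither cultures nor arrays. Marker genes separated the samples in the direction of their labels. Of 14 measured markers of pluripotent cells 12 were at least 2-fold higher in the generated cells and none was lower. That is 85.7% higher, where 22.1% of all genes above the floor were higher. Nanog was close to the floor, at 94.7 in the generated cells and 77.7 in the parental cells.

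Markers of other cell types differed between the samples too, evenly for fibroblasts and mesenchyme and unevenly for leukocytes. All 5 measured markers of fibroblasts and mesenchyme were lower, with a summed intensity of 769 in the generated cells and 138640 in the parental cells, and Eln and Snai2 were under the floor in the generated cells. Of 8 measured leukocyte markers 4 were lower and 1 was higher, with a summed intensity of 13285 in the generated cells, of which Laptm5 gave 12204, and 8087.7 in the parental cells. C1qa and C1qc were under the floor in the generated cells. These shifts run beside every result below, and their part in it was not tested. In such bulk RNA, fewer cells of a type and less RNA per cell cannot be told apart.

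Among the Wnt pathway genes, 20 were lower and 5 higher by a factor of 2 or more in the generated cells, while 22 differed by less than 2-fold and 12 were dim in both samples. The 20 lower genes were 42.6% and the 5 higher genes 10.6% of the 47 above the floor, where 22.6% of all 9766 genes above the floor were lower and 22.1% were higher. When each value under the floor was raised to the floor, 18 genes were lower and 5 higher, against 20.8% lower and 20.5% higher over all genes. At 4-fold or more, 14 were lower and 3 higher, against 10.3% lower and 7.52% higher over all genes. The median log2 difference of the 47 genes was -0.30, beside 0.12 for all genes, and the middle of their distribution, from the 25th to the 75th percentile, ran from -2.32 to 0.48, beside -0.87 to 0.90. The 7 genes that were above the floor in 1 sample only were all above it in the parental cells. The same count over all genes is not given here, so this is not read as a trait of the Wnt pathway genes. The lowest difference was -6.54 and the highest 3.08. The size of the median depended on the processing, from -0.99 with the floor at the median of each column to -0.15 with no filter on dim genes, and it was below 0 under each alternative run.

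**Figure D1:**
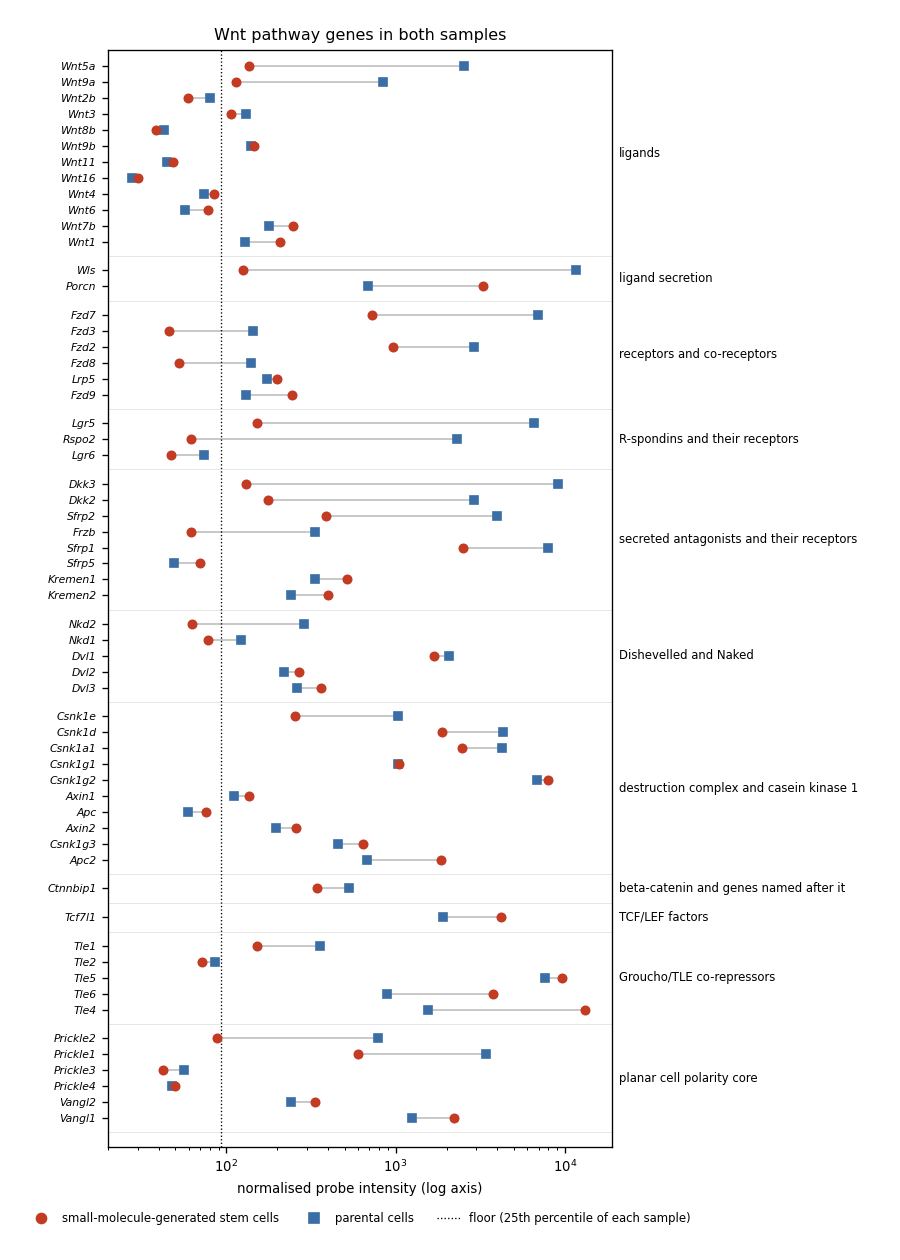
Normalised intensity (log axis) of the 59 Wnt pathway genes in the small-molecule-generated stem cells (circles) and the parental cells (squares), grouped by role. Wls, Dkk3, Lgr5 and Rspo2 have the longest lines, with the parental value on the right, and Tle4 has the longest line with the value of the generated cells on the right, at 13071.

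The lower genes lay mostly on the outside of the pathway. Genes of ligands, ligand secretion, receptors, R-spondins and antagonists numbered 23 above the floor, of which 14 were lower and 1, Porcn, was higher. That is 60.9% lower and 4.35% higher, beside 22.6% and 22.1% of all genes above the floor. When values under the floor were raised to it, 12 of the 23 were lower. Genes of cytoplasmic and nuclear roles numbered 20 above the floor, of which 4 were lower and 4 higher. This division was made after the values had been seen, and the difference between the groups was not tested.

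The promoters of 5 genes on which the results turn are shown, as far as RefSeq (GRCm38.p6) windows were at hand: Wls, Fzd7 and Sfrp2, which were lower, and Tcf7l1 and Tle4, which were higher. Each window runs from 250 bases before the gene's start to 50 after it, 5′ to 3′ on the gene's strand, and for Tle4 it is the first of 2 listed. Capitals mark a TCF/LEF motif (CTTTGNN with A or T at each N, either strand) or an octamer, the motif of POU factors such as OCT4 (ATTTGCAT, either strand). The TCF/LEF letters with T at both N are also a motif of SOX factors.
Wls (chr3:159839400-159839699, plus strand): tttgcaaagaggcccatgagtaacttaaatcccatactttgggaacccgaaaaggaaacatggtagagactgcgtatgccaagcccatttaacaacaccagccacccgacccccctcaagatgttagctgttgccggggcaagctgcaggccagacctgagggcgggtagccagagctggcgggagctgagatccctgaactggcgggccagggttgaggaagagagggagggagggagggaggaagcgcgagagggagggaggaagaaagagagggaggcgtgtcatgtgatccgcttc
Fzd7 (chr1:59481897-59482196, plus strand): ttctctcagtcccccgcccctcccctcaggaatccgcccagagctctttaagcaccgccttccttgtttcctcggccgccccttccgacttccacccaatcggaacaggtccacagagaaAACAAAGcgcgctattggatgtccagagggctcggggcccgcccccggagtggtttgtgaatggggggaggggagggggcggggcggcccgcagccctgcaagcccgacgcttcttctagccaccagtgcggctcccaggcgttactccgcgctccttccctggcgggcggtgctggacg
Sfrp2 (chr3:83766071-83766370, plus strand): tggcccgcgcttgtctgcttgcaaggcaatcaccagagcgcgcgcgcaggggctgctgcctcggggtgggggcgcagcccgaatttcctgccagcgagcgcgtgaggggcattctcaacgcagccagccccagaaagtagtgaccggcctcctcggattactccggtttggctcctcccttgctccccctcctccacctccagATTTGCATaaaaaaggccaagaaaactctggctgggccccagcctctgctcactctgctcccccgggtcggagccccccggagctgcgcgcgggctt
Tcf7l1 (chr6:72788996-72789295, minus strand): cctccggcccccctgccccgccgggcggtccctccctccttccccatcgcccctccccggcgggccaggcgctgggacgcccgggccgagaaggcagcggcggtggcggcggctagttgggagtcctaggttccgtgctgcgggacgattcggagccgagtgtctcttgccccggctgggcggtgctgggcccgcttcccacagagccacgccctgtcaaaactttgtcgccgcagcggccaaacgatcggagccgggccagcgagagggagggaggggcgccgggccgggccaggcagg
Tle4 (chr19:14598134-14598433, minus strand): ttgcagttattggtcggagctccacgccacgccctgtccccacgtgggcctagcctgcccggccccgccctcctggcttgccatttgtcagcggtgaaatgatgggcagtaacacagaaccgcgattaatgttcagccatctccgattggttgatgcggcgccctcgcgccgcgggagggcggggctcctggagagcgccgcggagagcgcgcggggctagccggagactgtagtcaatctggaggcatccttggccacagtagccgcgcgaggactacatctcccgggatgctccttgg

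In Fzd7 the TCF/LEF letters started 130 bases before the gene's start, on the opposite strand, and in Sfrp2 the octamer started 47 bases before it. The windows of Wls, Tcf7l1 and Tle4 held neither, which says only that these letters are not in these windows. RefSeq windows were found for 40 of the 59 genes, 55 windows in all. Of these 5 (9.09%) held a TCF/LEF motif, beside 16.9% of all 32851 mouse windows, and 1 (1.82%) held an octamer, beside 1.74%. The motif of estrogen-related receptors (TCAAGGTCA, either strand) was in 0 of the 55 windows and in 0.423% of all. The windows of the Wnt pathway genes were rich in CpG, with a median of 23 CpG and a GC content of 66%, beside 7 and 52.7% in all windows, which include those of noncoding genes. Among the windows shown, Wls stood low with 11 CpG and Tcf7l1 high with 34.

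Of 12 ligand genes measured, 6 were under the floor in both samples (Wnt2b, Wnt4, Wnt6, Wnt8b, Wnt11 and Wnt16), 2 were lower and none was higher. The 2 lower genes were 33.3% of the 6 above the floor, a share that rests on few genes. Of all genes above the floor 22.6% were lower and 22.1% higher. Wnt5a, the principal ligand of beta-catenin-independent signalling, was at 137 in the generated cells and 2545 in the parental cells, 18.6-fold lower. Wnt9a, a ligand of skeletal and joint tissue, was at 114 in the generated cells and 842 in the parental cells, 7.37-fold lower. Both lay close to the floor in the generated cells. The other 4 ligands above the floor differed by less than 2-fold. Wnt1 was at 208 in the generated cells and 129 in the parental cells, and Wnt7b at 247 in the generated cells and 178 in the parental cells. Wnt3, a ligand of the early embryo, was at 106 in the generated cells and 130 in the parental cells, and its chromosomal neighbour Wnt9b was at 145 in the generated cells and 140 in the parental cells. No ligand measured here exceeded 247 in the generated cells.

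The secretion genes went opposite ways. Wls, which carries lipid-modified Wnt proteins to the cell surface, was at 126 in the generated cells and 11721 in the parental cells, 92.9-fold lower, the 23rd lowest log2 difference of the 9766 genes above the floor. Porcn, the acyltransferase that adds the lipid to Wnt proteins in the endoplasmic reticulum, was at 3266 in the generated cells and 690.1 in the parental cells, 4.73-fold higher. Each was read by 1 probe, and Wls lay close to the floor in the generated cells. Both differences exceeded 2 SD of the probe error, which equals 4.28-fold.

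Receptor and co-receptor genes numbered 6, all above the floor, of which 4 (66.7%) were lower, none was higher and 2 differed by less than 2-fold. Over all genes above the floor 22.6% were lower and 22.1% higher. With values under the floor raised to it, 2 of the 6 were lower, beside 20.8% of all genes. Fzd7 was at 729 in the generated cells and 6905 in the parental cells, 9.47-fold lower, and stayed well above the floor in both. Its promoter window, shown above, was 1 of the 5 with a TCF/LEF motif. Fzd2 averaged 971 in the generated cells and 2889.9 in the parental cells, 2.98-fold lower, but its probes disagreed. The first probe read 277 in the generated cells and 2584 in the parental cells, 9.31-fold lower, and the other read 3397 in the generated cells and 3232 in the parental cells, so the gene's direction rests on the first of them. Fzd3 was at 46.1 in the generated cells and 144 in the parental cells, at least 1.54-fold lower, and Fzd8 at 52.3 in the generated cells and 139 in the parental cells, at least 1.49-fold lower. These count as lower only on their measured values. Fzd9 was at 244 in the generated cells and 130 in the parental cells, 1.88-fold higher. The co-receptor gene Lrp5 was at 199.5 in the generated cells and 175 in the parental cells, 1.14-fold higher.

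R-spondins bind LGR receptors and strengthen Wnt signalling by protecting Frizzled from removal. Lgr5, a receptor of R-spondins and a marker of intestinal stem cells, was at 153 in the generated cells and 6577 in the parental cells, 43.1-fold lower. Its ligand gene Rspo2 was at 61.8 in the generated cells, under the floor, and 2302 in the parental cells, at least 24.6-fold lower. Lgr5 lay close to the floor in the generated cells, and Lgr6 was dim in both samples. Both R-spondin system genes above the floor were thus strongly lower, the 67th and 88th lowest differences of all genes above the floor.

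Secreted antagonists were lower as well. Of 8 measured genes of antagonists and of the Kremen receptors 5 were lower, none was higher, 2 differed by less than 2-fold and Sfrp5 was dim. The 5 lower genes were 71.4% of the 7 above the floor. Of all genes above the floor 22.6% were lower and 22.1% higher. Dkk3, the most divergent member of the Dickkopf family, was at 130 in the generated cells and 9068 in the parental cells, 69.8-fold lower. Dkk2, which binds LRP5/6, was at 175 in the generated cells and 2914 in the parental cells, 16.6-fold lower. Both Dickkopf genes were close to the floor in the generated cells. The secreted Frizzled-related proteins, which bind Wnt ligands directly, differed more unevenly. Sfrp2 was at 387 in the generated cells and 3963 in the parental cells, 10.3-fold lower, and Sfrp1 at 2496 in the generated cells and 7989 in the parental cells, 3.20-fold lower. Frzb was at 61.8 in the generated cells and 336 in the parental cells, at least 3.6-fold lower. Of these 5 genes Sfrp1 kept the largest share of its parental value, 31.2%. The Kremen genes encode receptors through which DKK proteins remove LRP6 from the surface. Kremen1 was at 515 in the generated cells and 335 in the parental cells, and Kremen2 at 401 in the generated cells and 242 in the parental cells, 1.54-fold and 1.65-fold higher.

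**Figure D2:**
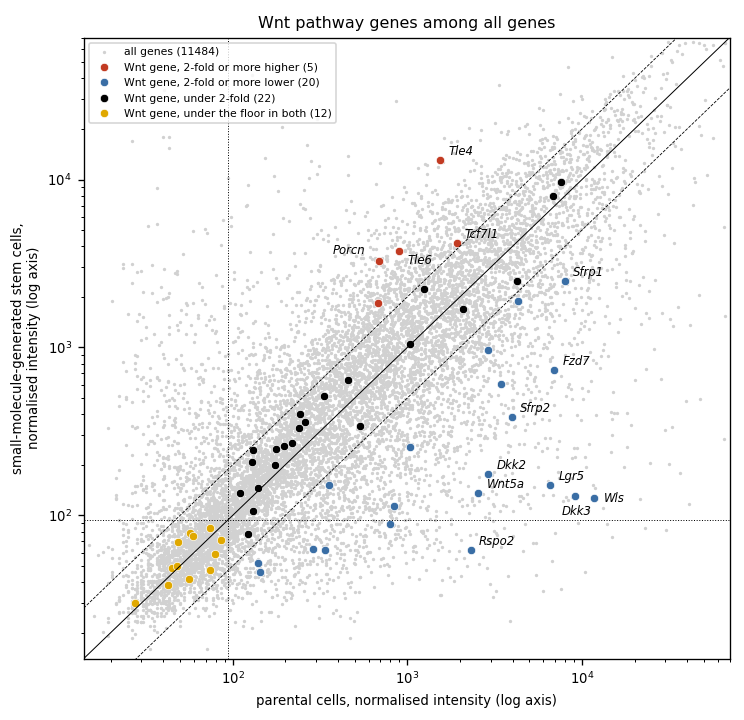
Normalised intensity in the small-molecule-generated stem cells (vertical, log axis) against the parental cells (horizontal, log axis) for all 11484 genes (grey) and the 59 Wnt pathway genes, coloured by size class, with dashed lines at 2-fold and dotted lines at the floors. The 20 lower Wnt pathway genes lie below the lower dashed line, several of them near the floor of the generated cells, and the 5 higher ones lie above the upper dashed line.

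Inside the cell 12 of the 20 genes above the floor (60.0%) differed by less than 2-fold, close to the 55.3% of all genes above the floor. Tle4, Tle6 and Csnk1e, described below, differed by more than 4-fold, as did Nkd2 on its measured values. The Dishevelled genes, which relay the signal from Frizzled, all differed by less than 2-fold. Dvl1 was at 1686 in the generated cells and 2080.0 in the parental cells, Dvl2 at 269 in the generated cells and 219 in the parental cells, and Dvl3 at 362 in the generated cells and 260.2 in the parental cells. The Naked proteins bind Dishevelled and dampen the signal. Nkd2 averaged 62.8 in the generated cells and 288 in the parental cells, at least 3.08-fold lower, and both of its probes were under the floor in the generated cells and above it in the parental cells. Nkd1, also a target of the canonical branch, averaged 77.8 in the generated cells and 122 in the parental cells, at least 1.30-fold lower.

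Of 10 measured genes of the destruction complex and casein kinase 1, 2 were lower, 1 was higher, 6 differed by less than 2-fold and Apc was dim. Of those above the floor 22.2% were lower, close to the 22.6% of all genes, and 11.1% were higher, beside 22.1%. The scaffold gene Axin1 averaged 136 in the generated cells and 111 in the parental cells, and 1 of its 2 probes was under the floor in both samples. Axin2, a scaffold that is also among the best-known targets of beta-catenin, was at 258 in the generated cells and 196 in the parental cells, 1.32-fold higher. Apc2, the paralog of Apc, was at 1848 in the generated cells and 679 in the parental cells, 2.72-fold higher. Both Axin genes differed by less than the error of 1 probe, and Apc2 by more.

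Csnk1e and Csnk1d, close relatives that phosphorylate Dishevelled, were the casein kinase 1 genes lower by 2-fold or more. Csnk1e was at 254 in the generated cells and 1032 in the parental cells, 4.07-fold lower, and Csnk1d at 1894 in the generated cells and 4317 in the parental cells, 2.28-fold lower. Csnk1a1, the kinase that primes beta-catenin for GSK3, was at 2472 in the generated cells and 4259 in the parental cells, 1.72-fold lower. The gamma kinases phosphorylate LRP6 at the membrane, and their genes differed by between 1.01-fold and 1.41-fold, less than the error of 1 probe. Csnk1g1 was at 1042 in the generated cells and 1029.6 in the parental cells, Csnk1g2 at 7974 in the generated cells and 6840.4 in the parental cells, and Csnk1g3 at 642 in the generated cells and 455 in the parental cells.

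In the nucleus genes went both ways. Tcf7l1, the TCF factor that represses pluripotency genes in mouse ES cells, was at 4183 in the generated cells and 1912 in the parental cells, 2.19-fold higher, which is close to the probe error of 2.07-fold. It was the only TCF/LEF gene measured. Ctnnbip1, whose product keeps beta-catenin from binding TCF, was at 342 in the generated cells and 534 in the parental cells, 1.56-fold lower. Of the Groucho/TLE co-repressor genes, Tle4 was at 13071 in the generated cells and 1545 in the parental cells, 8.46-fold higher, the largest upward difference among the Wnt pathway genes. Tle6, a divergent member known from the maternal complex of mouse oocytes, was at 3764 in the generated cells and 893 in the parental cells, 4.21-fold higher. Tle1 went the other way, with averages of 151 in the generated cells and 356 in the parental cells, 2.36-fold lower, and 1 of its 2 probes was under the floor in both samples. Tle5, a short member that lacks the repeats by which the others bind their partners, was at 9634 in the generated cells and 7602 in the parental cells, 1.27-fold higher, and Tle2 was dim. Tle5, Tle2 and Tle6 follow each other among the protein-coding genes of chromosome 10, and of these neighbours Tle6 alone differed by 2-fold or more.

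The planar cell polarity core orients cells within a sheet. Prickle1 was at 602 in the generated cells and 3422 in the parental cells, 5.68-fold lower, and Prickle2 at 88.2 in the generated cells, under the floor, and 792 in the parental cells, at least 8.48-fold lower. Vangl1 and Vangl2, the membrane proteins that recruit Prickle, did not follow. Vangl1 was at 2222 in the generated cells and 1245 in the parental cells, 1.78-fold higher, and Vangl2 at 333 in the generated cells and 241 in the parental cells, 1.38-fold higher. Prickle3 and Prickle4 were dim in both samples.

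**Figure D3:**
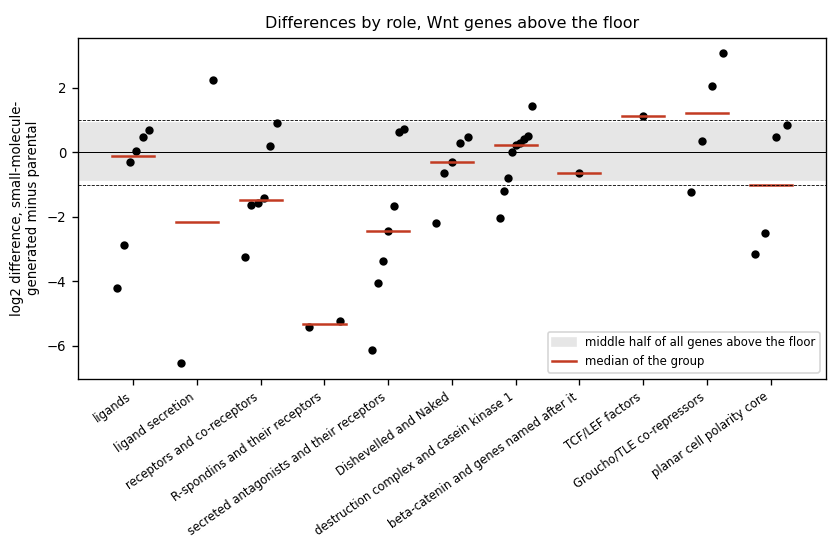
Log2 difference (small-molecule-generated minus parental, as measured) of each Wnt pathway gene above the floor in at least 1 sample, by role, with the median of each role (line) and the middle part of all genes from the 25th to the 75th percentile (-0.87 to 0.90, grey band). Points of R-spondins and antagonists lie below the band except for the Kremen genes, and points of Dishevelled and the destruction complex lie mostly within it.

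Pathway genes beyond these families were taken from 7 lists. Of 9 measured further secreted modulators 4 were lower, none was higher, 3 differed by less than 2-fold and 2 were dim. The 4 lower ones were 57.1% of the 7 above the floor. Of all genes above the floor 22.6% were lower and 22.1% higher. Serpinf1, a secreted serpin that binds LRP6, was at 1357 in the generated cells and 41576 in the parental cells, 30.6-fold lower. Igfbp4, which binds insulin-like growth factors and also Frizzled and LRP6, was at 1231 in the generated cells and 16129 in the parental cells, 13.1-fold lower, and the glypican gene Gpc4 was 4.28-fold lower. All 4 membrane regulators above the floor were lower, and Musk was dim. The smallest of these 4 differences was 2.07-fold, equal to the error of 1 probe. Ryk, a receptor for Wnt5a, was at 1080.1 in the generated cells and 9980.4 in the parental cells, 9.24-fold lower. Ror2, the receptor tyrosine kinase of the same ligand, was at 457 in the generated cells and 1968 in the parental cells, 4.31-fold lower, and Adgra2 was 3.64-fold lower. Wnt5a and both of these receptor genes were therefore lower together.

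Cytoplasmic regulators and nuclear cofactors stayed closer to the parental level. Of 24 measured cytoplasmic regulators 5 were lower, 3 higher, 14 under 2-fold and 2 dim. Dact1, a Dishevelled antagonist, was at 53.9 in the generated cells and 436 in the parental cells, at least 4.67-fold lower, and Ppp2r5d, a regulatory subunit of protein phosphatase 2A, was at 6001 in the generated cells and 1637 in the parental cells, 3.67-fold higher. Of 20 measured nuclear cofactors 1 was lower, 2 were higher, 14 were under 2-fold and 3 were dim. Nlk, a kinase that phosphorylates TCF/LEF factors, was at 3711 in the generated cells and 1035 in the parental cells, 3.59-fold higher, and Ruvbl2, an ATPase that binds beta-catenin, was 3.37-fold higher. Ctbp1, a co-repressor, was 2.58-fold lower. The shares lower in these lists, 22.7% and 5.88% of the genes above the floor, lie at and below the 22.6% of all genes. The shares under 2-fold were 63.6% and 82.4%, beside 55.3% of all genes.

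Of 14 measured polarity effectors 4 were higher, 3 lower, 6 under 2-fold and 1 dim. The higher ones were 30.8% and the lower ones 23.1% of those above the floor, beside 22.1% and 22.6% of all genes. Celsr3, an atypical cadherin, was at 702 in the generated cells and 141 in the parental cells, 4.99-fold higher, and Scrib, a scaffold of cell polarity, was 3.10-fold higher. The cadherin gene Dchs1 was 6.16-fold lower and the GTPase genes Rac1 and Cdc42 were 4.21-fold and 3.56-fold lower. Of 12 measured calcium branch genes 4 were lower, 1 higher, 5 under 2-fold and 2 dim. Of the 10 above the floor 40.0% were lower and 10.0% higher, beside 22.6% and 22.1% of all genes. The calcineurin subunit gene Ppp3ca was at 680.3 in the generated cells and 7547 in the parental cells, 11.1-fold lower, whereas Camk2b was at 1194 in the generated cells and 35.6 in the parental cells, at least 12.7-fold higher.

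Known targets of the canonical branch went both ways. Of 22 measured targets, 3 of them also counted among the Wnt pathway genes above (Axin2, Nkd1 and Lgr5), 9 were lower, 5 were higher and 8 differed by less than 2-fold, which is 40.9% lower and 22.7% higher beside 22.6% and 22.1% of all genes. Ccn5, a matricellular gene also known as Wisp2, was at 239.8 in the generated cells and 14678 in the parental cells, 61.2-fold lower, and Ccnd2, a D-type cyclin gene, at 167 in the generated cells and 7416 in the parental cells, 44.4-fold lower. The homeobox gene Gbx2 was at 2457 in the generated cells and 138 in the parental cells, 17.8-fold higher, and Mycn was at 1758 in the generated cells and 157 in the parental cells, 11.2-fold higher. En2 was at 337 in the generated cells and 46.9 in the parental cells, at least 3.59-fold higher. En1 was at 42.0 in the generated cells, under the floor, and 1171 in the parental cells, at least 12.5-fold lower. The feedback targets Axin2 and Notum differed by less than 2-fold, with Notum at 175 in the generated cells and 106 in the parental cells.

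**Figure D4:**
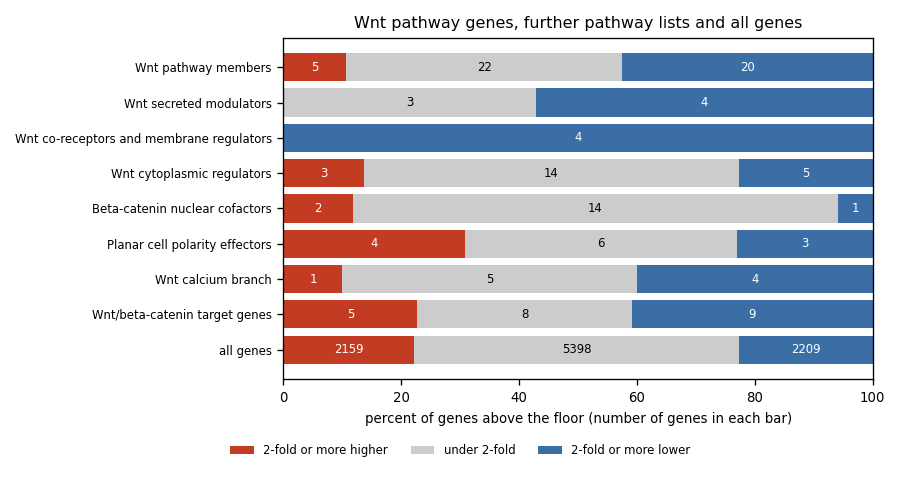
Share of genes above the floor (horizontal, percent) that were higher, under 2-fold and lower in the small-molecule-generated stem cells against the parental cells, with the number of genes in each bar, for the Wnt pathway genes, the 7 further lists and all genes. All 4 membrane regulators were lower, whereas 14 of 17 nuclear cofactors differed by less than 2-fold.

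Agreement between probes could be read in the 6 Wnt pathway genes with 2 probes. Both probes passed the floor in at least 1 sample in Csnk1g3, Nkd1, Nkd2 and Fzd2, and their direction was shared in the first 3 of these and not in Fzd2. In Axin1 and Tle1 the dimmer probe was under the floor in both samples and gives no direction. Tle1 read 858 in the generated cells and 2219 in the parental cells on its brighter probe, 2.59-fold lower. The other 53 genes, Wls, Dkk3, Lgr5, Rspo2, Tle4 and Porcn among them, rest on 1 probe each.

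**Figure D5:**
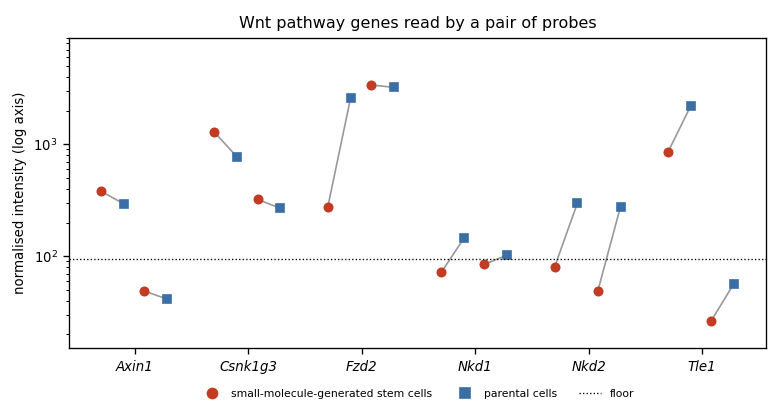
Normalised intensity (vertical, log axis) of each probe of the 6 Wnt pathway genes with 2 probes, in the small-molecule-generated stem cells (circles) and the parental cells (squares), with a line joining the values of a probe and the floor dotted. The probes of Fzd2 differ, 1 falling to the left at 277 and 1 nearly level, while both probes of Nkd2 are lower in the generated cells.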

How the data were processed

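Total RNA extracted with Trizol and cleaned on RNeasy columns was amplified and labelled with Cy5, per the labels' protocols, and put on a 1-colour array, the Phalanx Mouse Whole Genome OneArray v2. The authors deposited normalised probe intensities on a linear scale; the sources used here do not give the scanner, the background correction or the normalisation. The 2 columns had nearly equal quantiles, so a difference in total signal between the samples would not be visible. The design text names 3 replicates per sample, and whether a column is 1 array or a mean was not settled; the number of arrays limits the precision.

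From the deposited intensities, log2 values were computed and the probes of a gene averaged (Python 3.11.15, pandas 2.3.3). Of 13989 probes, 12380 had 1 gene symbol in the platform annotation, 0 had several and 1609 were not listed. Through Entrez identifiers 12364 probes were matched to a RefSeq table (GRCm38.p6), whose symbols were then used. A gene was counted if above the 25th percentile of a column in at least 1 sample, at a size of 2-fold or more, with no test. The computation was tested on simulated data. The Wnt pathway genes, the 7 pathway lists and the 8 marker lists were chosen with earlier results of these data known. All measured Wnt pathway genes could be named, and up to 3 genes each way from each other list. Marker lists of epithelial, endothelial, neural progenitor, trophoblast and primitive endoderm cells are given under other observations. Alternatives were median, quantile and lowess centring, the brightest probe, an offset of 50, other floors, a 4-fold rule and counting probes, with 2 chosen after seeing the data. No sequence of chromosome 18 was used.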

Additional observations from a re-analysis of the deposited data

How the results depend on the processing

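No paired analysis was possible because there was 1 sample per group, and no replicate could be left out. Counts of Wnt pathway genes moved by more than 1.5 times only under other size rules. Percentages here are of genes above the floor. With a 4-fold rule 3 (6.38%) were higher, and over all genes 734 (7.52%) were higher and 1010 (10.3%) lower. The 14 lower ones (29.8%) moved by less. With a rule of 2 SD of the probe error, chosen after seeing the data, 2 (4.26%) were higher and 13 (27.7%) lower. Over all genes 672 (6.88%) were higher and 946 (9.69%) lower under that rule. Fewer genes pass a larger size by construction. The median log2 difference of the Wnt pathway genes was -0.47 with lowess centring (span 0.3) and -0.99 with the floor at the median, which left 34 of them. It was smaller with no filter (-0.15) and with each of 3 classes of probe identifiers centred (-0.18). With the brightest probe per gene Fzd2 had a log2 difference of 0.0717, the reverse of its mean, since its probes disagree. Every other counted gene kept its value within the probe error under the alternatives run for single genes: median, quantile and lowess centring, the brightest probe, the offset of 50, values set to the floor, and centring each of 3 classes of probe identifiers, chosen after seeing the data. Signal over background limits the 12 dim genes and the 7 with only a bound.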

Other observations

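Markers of further cell types gave the following counts, where 22.1% of all genes above the floor were higher and 22.6% lower. Each list held few measured genes, and no count was tested. Of 6 measured epithelial markers 3 were higher (Epcam, Krt8 and Cldn6), 2 differed by less than 2-fold and 1 was dim, with a summed intensity of 9151.5 in the generated cells and 1518 in the parental cells. Krt8, a keratin of simple epithelia, was at 2711 in the generated cells and 209.9 in the parental cells, 12.9-fold higher. Of 6 endothelial markers 2 were higher, 1 lower, 2 under 2-fold and 1 dim. Of 5 neural progenitor markers 2 were higher, 1 lower, 1 under 2-fold and 1 dim. Both trophoblast markers measured were higher, Hand1 by 2.19-fold and Ascl2 by at least 3.58-fold. Of 3 primitive endoderm markers 1 was lower, Gata6 by 12.2-fold, at 142 in the generated cells and 1733 in the parental cells, 1 differed by less than 2-fold and 1 was dim.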
